A study of Mus musculus with 31 samples.

Results

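Lats2, Rbl2, Casp2, Ei24, Rhoc, Mbd2, Tgfbr2, and Dkk1 are mRNAs that earlier work has named as targets of the miR-290 and miR-302 miRNAs. The 8 genes were taken by name from the RNA-seq table, where all 8 of 15034 genes were found, and each was followed through 12 libraries of mouse embryonic stem cells (mESCs). The WT mESCs (2 libraries) were ES-E14TG2a cells that carry a FLAG tag on Trim71, an RNA-binding protein that represses mRNA translation. In the CLIPΔ mESCs (2 libraries), the region of the *Ago2* 3’UTR that Trim71 binds had been deleted on both alleles. The *Ago2* KO mESCs (4 libraries) had been made with a pair of guides in the coding region of *Ago2*, which encodes an Argonaute protein, and the *Ago2* KO/CLIPΔ mESCs (4 libraries) carried both changes. All were E14 derivatives made by genome editing and profiled in 2i+lif medium, with no other treatment. The paper lists the CLIPΔ, *Ago2* KO, and *Ago2* KO/CLIPΔ lines with the same FLAG tag on Trim71, so that the tag is shared by all genotypes. Knockout lines were grown from single sorted cells, and CLIPΔ mESCs came as 2 independent clones, so each genotype stands for few clones. Which CLIPΔ clone gave which library is not given in the sources used here.

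The miR-290 and miR-302 clusters are miRNA clusters of the early mouse embryo and its stem cells. Several of their 3p miRNAs share a seed, the bases with which a miRNA in an Argonaute protein pairs with an mRNA. Such pairing in a 3’UTR lowers the stability and the translation of the mRNA. Targets described for this seed include brakes on the G1/S transition, on growth signalling, and on survival, and repression of these brakes is held to keep the short cell cycle and the survival of mESCs. Argonaute proteins are the carriers in which all of this pairing takes place, and mESCs have other Argonaute genes beside *Ago2*.

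The miRNAs of the small-RNA table whose bases 2 to 8 are AAGUGCU numbered 5 among those with a RefSeq sequence (GRCm38.p6). No such sequence was at hand for miR-302a-3p, which was therefore not counted, whatever its seed. It made up 0.199% of the summed miRNA values in the WT on average. The 5 are shown because the sites in the 8 mRNAs were searched for this seed, which stands in capitals. The first 3 come from the miR-290 cluster on chromosome 7 and the others from the miR-302 cluster on chromosome 3.
miR-291a-3p (chr7:3218968-3218989, plus strand): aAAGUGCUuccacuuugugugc
miR-294-3p (chr7:3220691-3220712, plus strand): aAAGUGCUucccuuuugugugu
miR-295-3p (chr7:3220815-3220837, plus strand): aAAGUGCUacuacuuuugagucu
miR-302b-3p (chr3:127545275-127545297, plus strand): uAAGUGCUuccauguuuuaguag
miR-302d-3p (chr3:127545665-127545687, plus strand): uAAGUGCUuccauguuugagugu
In miR-302c-3p the same 7 bases stand at positions 1 to 7, so that it was not counted among the 5.
miR-302c-3p (chr3:127545406-127545427, plus strand): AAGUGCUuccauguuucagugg

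All 8 genes held a match to this seed in the longest annotated 3’UTR (GENCODE M21, mm10). Matches were sought on the mRNA strand as the 8mer AGCACTTA, the 7mer-m8 AGCACTT, the 7mer-A1 GCACTTA, or the 6mer GCACTT, and each position was counted once, by its longest match. The 8 3’UTRs held 17 matches, of which 4 were 8mers and 9 were 7mers. Lats2, Rbl2, Mbd2, and Tgfbr2 had an 8mer, and the longest match in Casp2, Ei24, Rhoc, and Dkk1 was a 7mer. Of the 10835 tested genes with an annotated 3’UTR, 3.39% had an 8mer and another 16.4% had a 7mer and no 8mer. The genes had been chosen as known targets, so a match in each is what the choice would bring.

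The sites are shown with their neighbouring bases, in windows of at most 30 bases with the match in capitals, since they are what an Argonaute carrying these miRNAs would read. The 8mers stood at base 195 of the 1626 bases of the Lats2 3’UTR, at base 1384 of 1398 in Rbl2, and at base 2600 of 6085 in Tgfbr2.
Lats2 8mer (chr14:57691075-57691104, minus strand): agtatggaaagAGCACTTAttttgtggata
Rbl2 8mer (chr8:91123819-91123844, plus strand): tttttcaataaAGCACTTAtaaatta
Tgfbr2 8mer (chr9:116087760-116087789, minus strand): tcaaaacctaaAGCACTTAttttcaatcta
The Rbl2 window is shorter because it ends with the annotated transcript. The 8mer of Mbd2 was at base 289 of a short 3’UTR of 480 bases.

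A 7mer was the longest match in the other genes, and it stood alone in Ei24, Rhoc, and Dkk1. Casp2 had 3 7mers, at bases 811, 1081, and 1603 of 2031.
Lats2 7mer-m8 (chr14:57690976-57691005, minus strand): ttgtatctgatAGCACTTgtccacagctag
Casp2 7mer-A1 (chr6:42281277-42281306, plus strand): ggcttctgcatGCACTTAcactgtacttga
Casp2 7mer-m8 (chr6:42281547-42281576, plus strand): tataacctagaAGCACTTgtctctgctctt
Casp2 7mer-A1 (chr6:42282069-42282098, plus strand): tccagtaactgGCACTTActaggtcttcat
Ei24 7mer-m8 (chr9:36779877-36779906, minus strand): gctgtttttttAGCACTTgccagctcctgt
Rhoc 7mer-m8 (chr3:104794320-104794349, plus strand): tattacacaccAGCACTTtatatatttttg
Dkk1 7mer-A1 (chr19:30546950-30546979, minus strand): tcctcagtgtgGCACTTAcctgtaaatgca
How common a match is depends on the length of the 3’UTR. Among tested genes within 20% of the length of the gene in question, an 8mer or 7mer was found in 5.77% for Rhoc, 6.68% for Mbd2, 14.7% for Ei24, 18.0% for Dkk1, 19.5% for Rbl2, 22.3% for Lats2, 27.3% for Casp2, and 65.7% for Tgfbr2. Most 3’UTRs as long as that of Tgfbr2 thus hold such a match, and few as short as those of Rhoc and Mbd2 do.

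**Figure D1:**
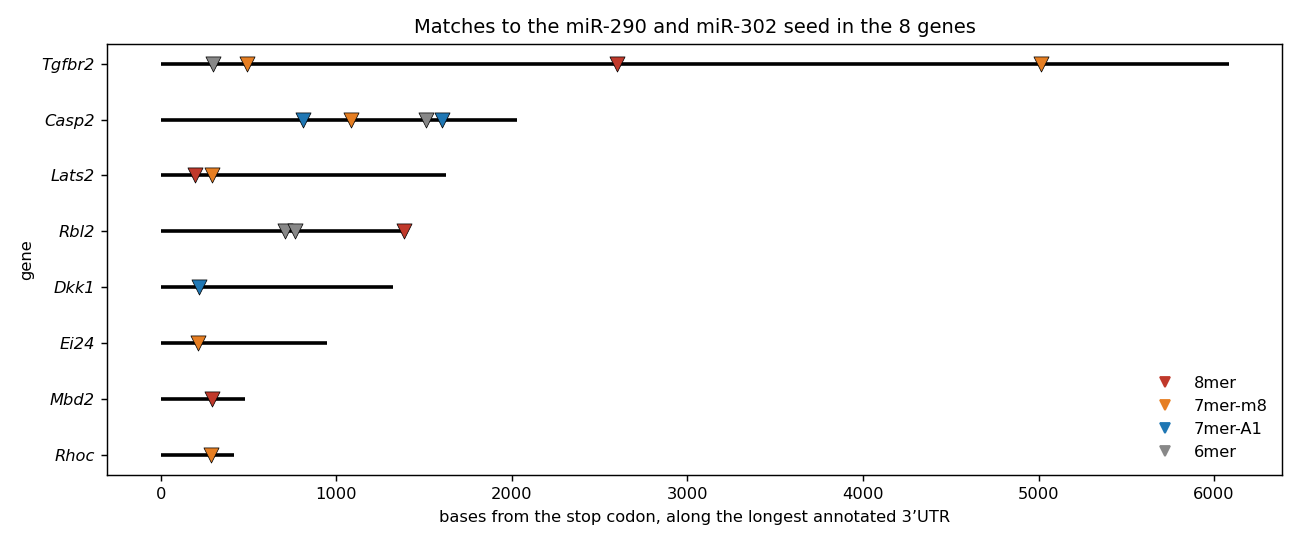
Matches to the AAGUGCU seed along the longest annotated 3’UTR of each gene, in bases from the stop codon, with the genes in order of 3’UTR length from Rhoc (416 bases) to Tgfbr2 (6085 bases). Triangles mark 8mers, both kinds of 7mer, and 6mers. The 8mer of Lats2 stands near the stop codon and that of Rbl2 at the far end, with both 6mers of Rbl2 near the middle.

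The table gives TPM, a level per transcript length that can be compared between genes and that is a share of the RNA in a library. In these bulk cultures, fewer cells that express a gene and less of its RNA per cell cannot be told apart. *Ago2*, the targeted gene, had a mean of 24.9 TPM in WT libraries (SD 4.69, n = 2) and of 1.95 in *Ago2* KO libraries (SD 0.261, n = 4). With the deletion the means were 23.8 (SD 4.98, n = 2) and 2.18 (SD 0.66, n = 4), so that every library bore out its label for this gene. Trim71 averaged 34.9 TPM (SD 0.00234, n = 2) in WT, 27.4 (SD 0.388, n = 2) in CLIPΔ, 25.4 (SD 2.46, n = 4) in *Ago2* KO, and 24.7 (SD 1.79, n = 4) in *Ago2* KO/CLIPΔ libraries, with those of the WT above all others. The 9 pluripotency markers in the table summed to between 6826 and 8160 TPM over all libraries, the 4 fibroblast markers to between 1.65 and 4.08 TPM, and the 10 lineage markers to between 73.7 and 161 TPM. These lineage sums were lower in every library without *Ago2* (at most 111 TPM) than in any with it (at least 150.2 TPM). The largest falls in mean from the WT to the *Ago2* KO were those of Nes (69.8 to 27.8 TPM) and T (18.0 to 6.93 TPM). Eomes went from 49.5 to 44.5 TPM, and Sox17 (1.75 to 1.81 TPM) and Hand1 (0.532 to 0.919 TPM) were higher. The part of these markers in the results below was not tested. Replicates 1 and 2 of the WT and CLIPΔ mESCs, and replicates 1 and 2 against 3 and 4 of both *Ago2* KO genotypes, stood apart in several of the 8 genes, and the labels name no batch. Genotypes with *Ago2* had 2 libraries each and those without it had 4, and the labels do not say whether all were prepared together. The loss of *Ago2* and a separate preparation of those libraries therefore cannot be told apart in the comparisons below.

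In the WT, the 8 mRNAs spanned a wide range of TPM. Ei24 (51.8 ± 23.6 TPM, SD, n = 2) and Rhoc (37.7 ± 2.36) were highest and their libraries overlapped. Casp2 followed at 17.1 ± 1.74 TPM, Mbd2 at 5.68 ± 0.648, Dkk1 at 4.39 ± 0.132, Lats2 at 2.15 ± 0.00811, Rbl2 at 1.65 ± 0.555, and Tgfbr2 at 0.530 ± 0.163, with no overlap between the libraries of neighbours in this order. Ei24 was above 81.2% of the genes in the table and Tgfbr2 above 17.1%. The order changed without *Ago2*: Rhoc had the highest mean TPM in both *Ago2* KO genotypes, and Dkk1 and Casp2, far apart in the WT, overlapped in both.

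Between the mESCs with and without *Ago2*, the 8 mRNAs did not move as one. Casp2, Mbd2, and Rbl2 fell, and Rhoc and Dkk1 rose, so 5 of the 7 tested genes passed an adjusted p of 0.05 in the *Ago2* KO against the WT, 3 lower and 2 higher (limma on log2(TPM + 1), Benjamini–Hochberg adjustment over all genes tested). Of all 11287 genes tested, 56.4% passed, 42.4% lower and 14% higher, and the share among the 7 (71.4%) is to be read against that background. Tgfbr2 did not reach the filter of a mean of 1 TPM. The median log2 fold change over all genes tested was -0.26, and for the 7 it was -0.18. Fold changes are on the log2(TPM + 1) scale, which understates the change of genes of low TPM such as Rbl2.

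The shift of all genes depends on the scaling. With each library centred on its median, the median of all genes was 0.09 in place of -0.26, and of the genes that passed 3559 were higher and 2371 lower, against 1579 higher and 4785 lower without centring. With quantile normalization 2731 were higher and 2804 lower. Casp2, Mbd2, Rhoc, and Dkk1 kept their direction and passed under both, with smaller falls and larger rises. Casp2 was at -0.69 with median centring and -0.67 with quantile normalization, Rhoc at 1.00 and 0.82, and Dkk1 at 1.06 and 1.12. Rbl2 no longer passed under either (adjusted p = 0.327 and 0.193). Without WT replicate 1, 4150 genes passed and 3 of the 6 members then tested were among them (Casp2, Mbd2, and Dkk1), since Rbl2 then fell under the filter and Rhoc had an adjusted p of 0.0562.

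**Figure D2:**
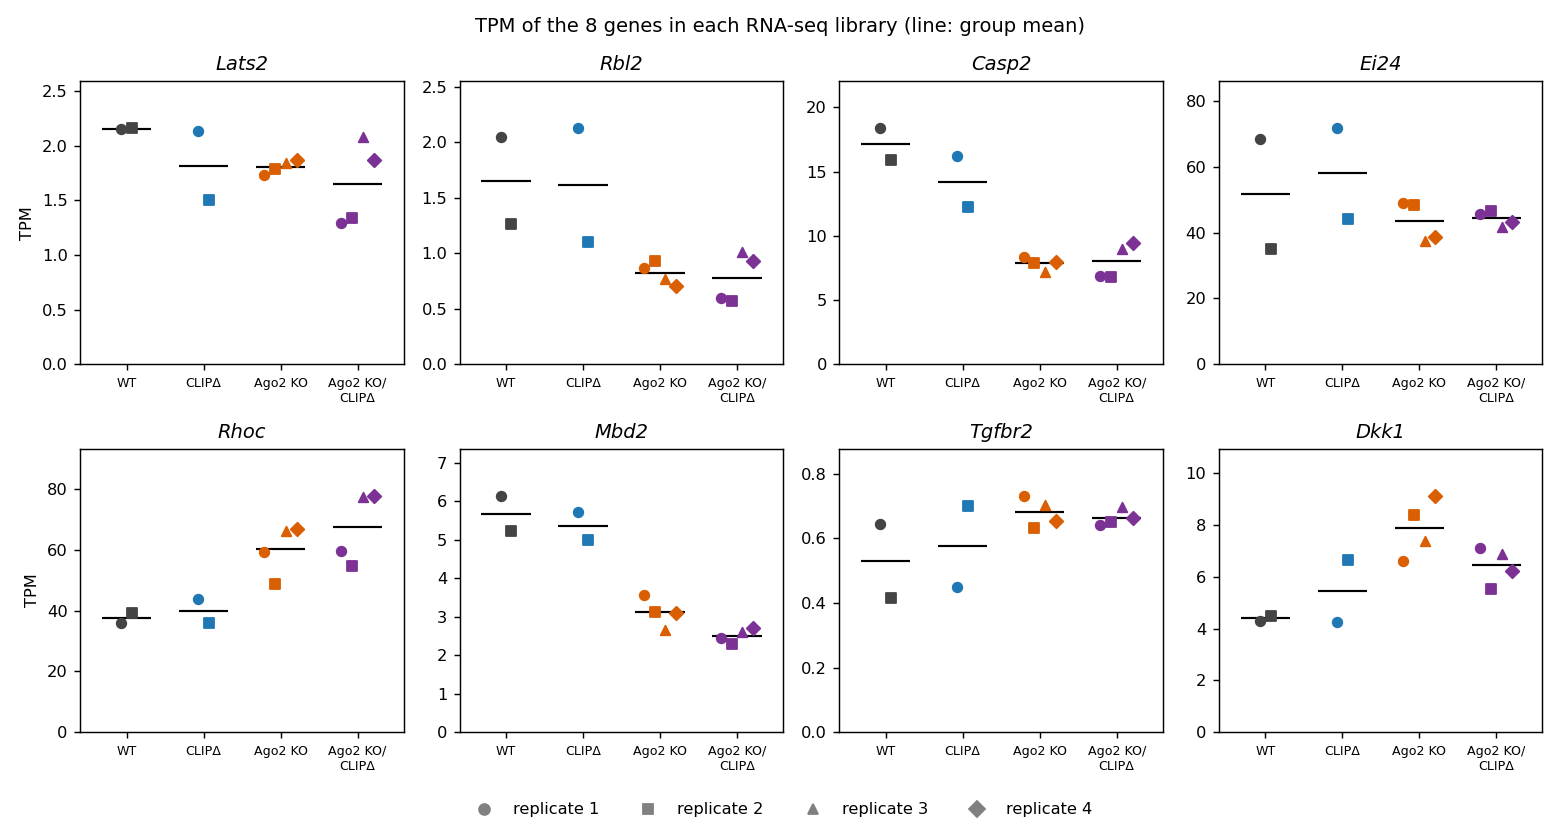
TPM of each gene (vertical axes, from 0, each with its own range) in every RNA-seq library of the 4 genotypes. Points are libraries, with the symbol giving the replicate number, and lines are group means. Casp2 and Mbd2 are lower and Rhoc is higher in all 8 libraries without *Ago2* than in all 4 with it.

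Casp2 encodes an initiator caspase, a protease of cell death and of the response to chromosome missegregation. Its TPM was 18.4 and 15.9 in the WT and 8.33, 7.91, 7.16, and 7.98 in the *Ago2* KO. The genotypes did not overlap, and the ratio of their means was 0.458. The log2 fold change was -1.04 (standard error 0.15, limma adjusted p = 0.000274), with 8.08% of all genes tested below it. In the CLIPΔ background Casp2 was at 16.2 and 12.3 TPM with *Ago2* and at 6.87, 6.76, 8.95, and 9.43 without it, where the log2 fold change was -0.76 (standard error 0.15, limma adjusted p = 0.00173). With median centring and quantile normalization that value was -0.43 and -0.40, and still passed. Casp2 and Tgfbr2 had the most matches, 4 each.

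Mbd2 encodes a methyl-CpG-binding protein that brings the NuRD repressor complex to methylated DNA. It had 6.14 and 5.22 TPM in the WT and 3.58, 3.13, 2.65, and 3.11 in the *Ago2* KO, without overlap. The log2 fold change was -0.70 (standard error 0.12, limma adjusted p = 0.000594). Its libraries without *Ago2* in the CLIPΔ background, at 2.45, 2.29, 2.60, and 2.70 TPM, lay below the 5.72 and 4.99 TPM of both libraries with *Ago2*. This log2 fold change was -0.86 (standard error 0.12, limma adjusted p = 0.000236). Mbd2 passed in both of these comparisons under every alternative run, with adjusted p between 0.000217 and 0.0256, but its size depended on the scaling. With median centring and quantile normalization the log2 fold change against the WT was -0.35 and -0.30, and that against the CLIPΔ was -0.52 and -0.47.

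Rbl2 encodes p130, a pocket protein that holds E2F genes silent outside the cycle. It was at 2.05 and 1.26 TPM in the WT, at 0.866, 0.928, 0.772, and 0.709 in the *Ago2* KO, at 2.13 and 1.10 in the CLIPΔ, and at 0.600, 0.570, 1.01, and 0.927 in the *Ago2* KO/CLIPΔ mESCs. Replicate 1 was far above replicate 2 in both genotypes with *Ago2*, yet all 8 libraries without *Ago2* lay below all 4 with it. The log2 fold changes were -0.53 (standard error 0.18, limma adjusted p = 0.0233) against the WT and -0.54 (standard error 0.18, limma adjusted p = 0.0226) against the CLIPΔ. Of the members' calls, these were lost under the most alternatives. Without *Ago2* KO replicate 4 the first had an adjusted p of 0.0518, and without *Ago2* KO/CLIPΔ replicate 1 or 2 the other had 0.0523 or 0.0541. The scaling moved that value further, to -0.21 with median centring (adjusted p = 0.274) and to -0.29 with quantile normalization (adjusted p = 0.133). With a pseudocount of 0.1 in place of 1, both calls held, at -0.90 and -0.94.

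Rhoc encodes a small GTPase that acts on the actin cytoskeleton and cell movement. Its TPM rose from 36.0 and 39.3 in the WT to 59.4, 48.9, 66.1, and 66.8 in the *Ago2* KO, and from 44.0 and 35.8 in the CLIPΔ to 59.6, 54.8, 77.5, and 77.7 in the *Ago2* KO/CLIPΔ mESCs. No library without *Ago2* overlapped with one that had it. The log2 fold changes were 0.66 (standard error 0.17, limma adjusted p = 0.00637) and 0.73 (standard error 0.17, limma adjusted p = 0.00364), and 93.9% and 96.0% of all genes tested lay below them. Replicates 3 and 4 were above 1 and 2 in both *Ago2* KO genotypes.

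Dkk1 encodes a secreted antagonist of Wnt signalling that binds the LRP5 and LRP6 co-receptors. It had 4.30 and 4.48 TPM in the WT and 6.63, 8.37, 7.40, and 9.11 in the *Ago2* KO, without overlap. The log2 fold change was 0.71 (standard error 0.16, limma adjusted p = 0.00335). In the CLIPΔ background the libraries overlapped, with 4.25 and 6.66 TPM with *Ago2* and 7.09, 5.53, 6.89, and 6.23 without it. That log2 fold change was 0.22 (95% confidence interval -0.13 to 0.58, limma adjusted p = 0.259). The value depended on which CLIPΔ library was kept, at 0.50 without CLIPΔ replicate 2 and -0.05 without replicate 1. It depended on the scaling too, since with both libraries kept it passed under median centring or quantile normalization (limma adjusted p = 0.0194 and 0.0162). The difference between both backgrounds, -0.49 (standard error 0.23), did not pass (limma interaction, adjusted p = 0.642).

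Lats2 and Ei24 did not pass in any of these comparisons. Lats2 encodes a kinase of the Hippo pathway that holds YAP and TAZ out of the nucleus. It was at 2.15 and 2.16 TPM in the WT and at 1.74, 1.78, 1.84, and 1.87 in the *Ago2* KO. These did not overlap, as was so for 6 of the 7 tested members and for 68.5% of all genes tested, and the log2 fold change was -0.17 (95% confidence interval -0.47 to 0.14, limma adjusted p = 0.32). Its sign turned under median centring (0.18) and quantile normalization (0.18). Ei24, an endoplasmic reticulum protein first found as a p53-induced gene and needed for autophagy, had 68.5 and 35.1 TPM in the WT and 49.1, 48.5, 37.4, and 38.7 in the *Ago2* KO. The WT replicates spanned all 4 *Ago2* KO libraries. Its log2 fold change of -0.18 (95% confidence interval -0.71 to 0.34, limma adjusted p = 0.531) became -0.66 without WT replicate 2 (adjusted p = 0.0277) and 0.29 without WT replicate 1, and it was 0.16 under median centring.

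Tgfbr2 encodes the type II receptor that binds TGF-beta and activates the type I receptor. It had the longest 3’UTR and 4 matches, and it was the least expressed of the 8. Its TPM was 0.646 and 0.415 in the WT, 0.450 and 0.700 in the CLIPΔ, 0.731, 0.633, 0.703, and 0.655 in the *Ago2* KO, and 0.642, 0.651, 0.699, and 0.664 in the *Ago2* KO/CLIPΔ mESCs. All genotypes overlapped. In a fit without the filter, over 15034 genes, its log2 fold change was 0.14 in the *Ago2* KO against the WT (95% confidence interval -0.02 to 0.29, limma adjusted p = 0.122). It did not pass in any other comparison of that fit either, with 0.344 as its lowest adjusted p.

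**Figure D3:**
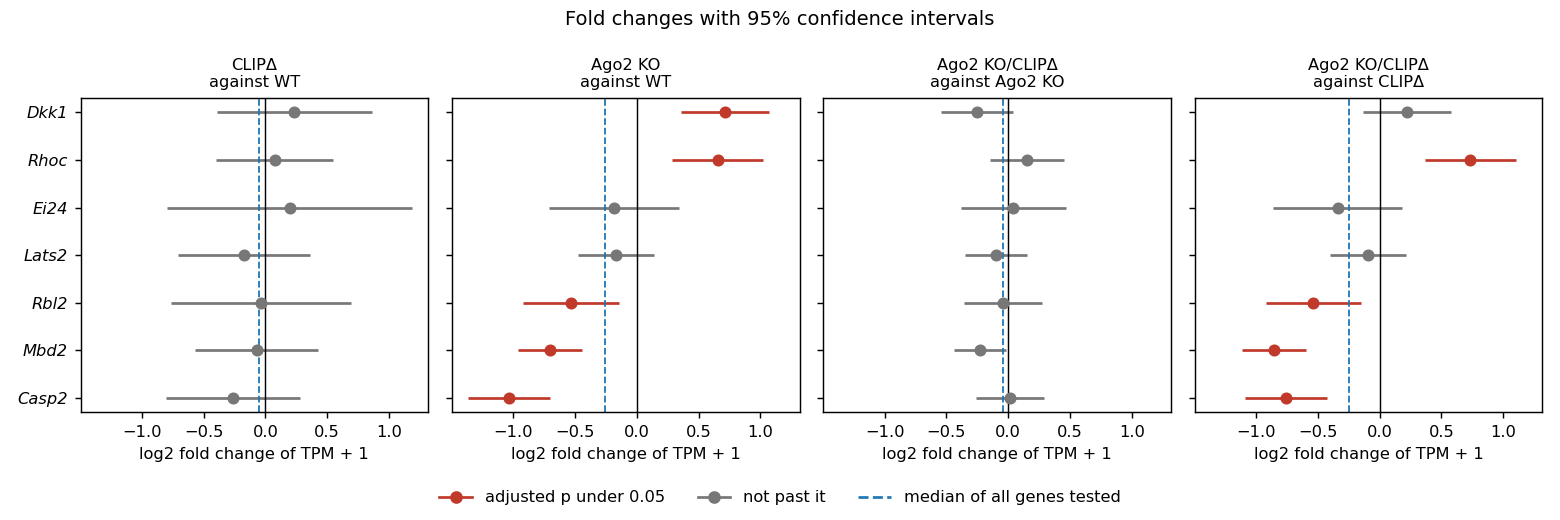
Log2 fold changes of TPM + 1 (points) with 95% confidence intervals (lines) of the 7 tested genes in 4 comparisons. Red marks an adjusted p under 0.05, and the dashed line is the median of all genes tested. In both comparisons of cells without and with *Ago2*, Casp2, Mbd2, and Rbl2 lie below the median and Rhoc above it. The comparisons share libraries.

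In the *Ago2* KO/CLIPΔ against the CLIPΔ mESCs, 4 of the 7 tested genes passed, Casp2, Mbd2, and Rbl2 lower and Rhoc higher, against 54.9% of all genes tested (42.1% lower and 12.8% higher). The median log2 fold change was -0.34 over the 7 and -0.25 over all genes. No overlap between genotypes was seen for these 4, and for 65% of all genes tested. Without CLIPΔ replicate 1, 3648 genes passed in place of 6201, and for median centring the split was 3401 higher and 2365 lower, in place of 1446 higher and 4755 lower. With quantile normalization it was 2714 and 2787. With only the libraries of these 2 genotypes in the fit, Rbl2 no longer passed (adjusted p = 0.0548).

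**Figure D4:**
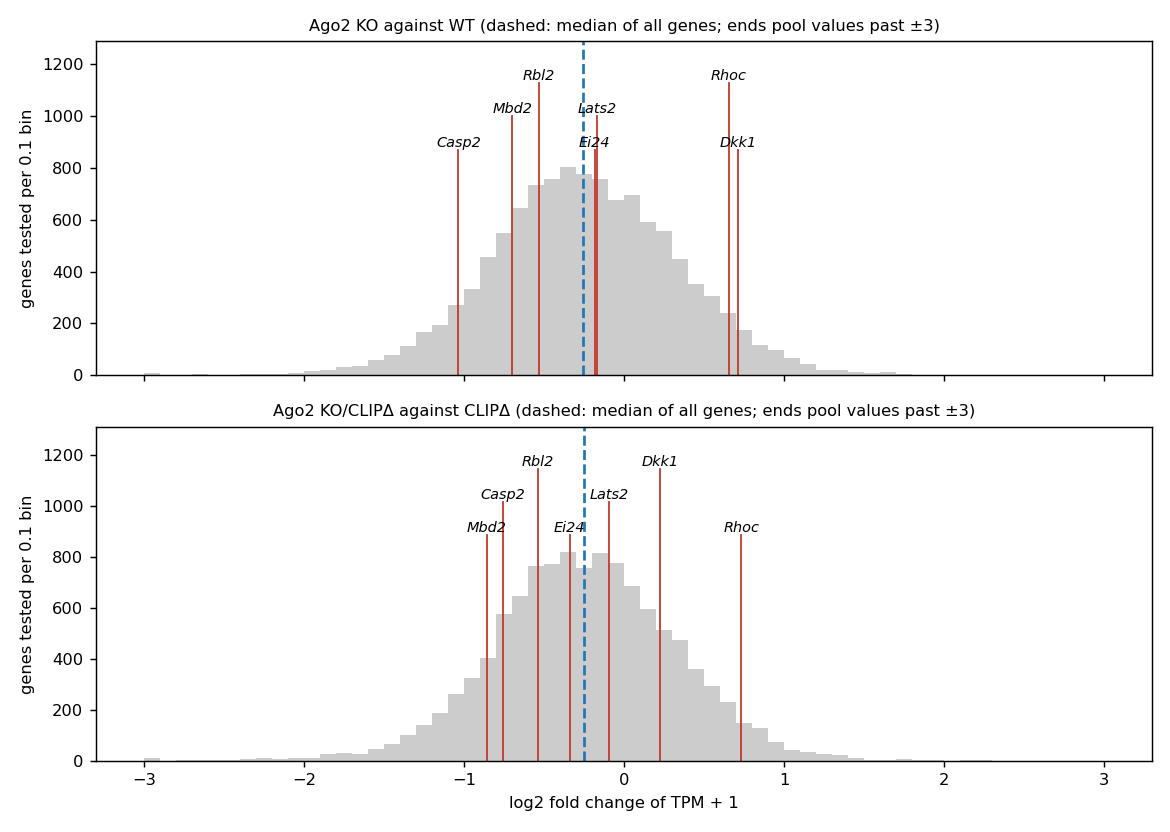
Number of tested genes (vertical axis, bins of 0.1) by log2 fold change of TPM + 1 for both comparisons of cells without and with *Ago2*. Red lines mark the 7 tested members and the dashed line the median of all genes. The members lie on both sides of the median, from Casp2 at -1.04 to Dkk1 at 0.71 in the upper panel.

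In the CLIPΔ against the WT mESCs, which asks whether the loss of Trim71 binding to *Ago2* mRNA moved these targets while *Ago2* was present, none of the 7 tested genes passed, and 0% of all 11642 genes tested did (limma on the 4 libraries, 0 genes, with 604 at an unadjusted p under 0.05). The estimates ran from -0.26 for Casp2 to 0.24 for Dkk1, with a median of -0.03 over the 7 and -0.05 over all genes. The 95% confidence intervals were wide, from -0.80 to 0.28 for Casp2 and from -0.80 to 1.19 for Ei24. The libraries of Lats2 alone did not overlap, with both CLIPΔ libraries below the 2.15 and 2.16 TPM of the WT, as was so for 30.9% of all genes tested. Taken by replicate number, the differences of replicate 1 and of replicate 2 were -0.17 and -0.35 for Casp2, 0.07 and 0.33 for Ei24, -0.09 and -0.05 for Mbd2, and -0.01 and -0.34 for Lats2. Their signs differed for Dkk1 (-0.01 and 0.48), Rhoc (0.28 and -0.13), and Rbl2 (0.04 and -0.11). No member passed in the fit over all 12 libraries, in which 256 genes did, 165 higher and 91 lower.

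In the *Ago2* KO/CLIPΔ against the *Ago2* KO mESCs, which asks the same question without *Ago2*, 0 of the 7 passed and 0.877% of all genes tested did (limma, 99 genes, 31 higher and 68 lower, with 1243 at an unadjusted p under 0.05). When libraries of the same number were blocked, the count was 180 (63 up and 117 down), and still 0 of the 7. Mbd2 had the lowest unadjusted p, with a log2 fold change of -0.23 (95% confidence interval -0.44 to -0.02, limma adjusted p = 0.41) and 3 of 4 *Ago2* KO/CLIPΔ libraries below all 4 *Ago2* KO libraries. The libraries of every member overlapped, and 13.4% of all genes tested had none. The estimates differed between the pairs of replicates. In replicates 1 and 2 those of Lats2, Rbl2, Casp2, and Ei24 were -0.25, -0.26, -0.22, and -0.08, and in replicates 3 and 4 they were 0.06, 0.18, 0.25, and 0.16. In a fit on replicates 3 and 4 alone, 4238 genes passed, and Casp2, Ei24, and Rhoc were among them, all higher. These calls are to be read against that large count over all genes. Rbl2, like Tgfbr2, lay under the filter in that fit. With replicates 1 and 2 alone 0 genes passed, and leaving out single libraries gave between 21 and 161 genes, of which 21, 22, 29, 35, 51, 61, and 62 came without *Ago2* KO replicate 1, 2, *Ago2* KO/CLIPΔ replicate 3, 4, *Ago2* KO replicate 3, *Ago2* KO/CLIPΔ replicate 1, and *Ago2* KO replicate 4, and 160 and 161 without WT replicate 1 and 2.

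The CLIPΔ effect with *Ago2* and that without it did not differ for any of the 7 past the threshold, with 0.647% of all genes tested passing (limma interaction, 73 genes, with 904 at an unadjusted p under 0.05). The interval was widest for Ei24, from -0.89 to 0.58. The count was 48 without *Ago2* KO replicate 2, 137 without CLIPΔ replicate 2, and 0 with replicates 1 and 2 alone. Trim71 itself had 0 CLIP peaks within these 8 genes among its 498 peaks in mESCs, and 1 of those peaks was assigned to *Ago2*. Since 498 peaks are few beside the 15034 genes of the RNA-seq table, most sets of 8 genes would hold none. The 0 is therefore no result about these genes.

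The small-RNA libraries, 4 per genotype, gave the level of the 5 miRNAs with the seed used in the site search. Matches that leave out the last base of this seed could also pair with other miRNAs, which were not counted. Summed, the 5 miRNAs with the AAGUGCU seed made up 35.2% ± 0.722 (SD, n = 4) of the deposited miRNA TPM in the WT, 29.9% ± 3.05 in the CLIPΔ, 14.5% ± 0.486 in the *Ago2* KO, and 12.5% ± 0.429 in the *Ago2* KO/CLIPΔ mESCs. The WT libraries had 35.3%, 34.2%, 35.7%, and 35.7%, and the *Ago2* KO libraries 15.0%, 13.9%, 14.6%, and 14.7%. The CLIPΔ libraries, at 26.9%, 34.1%, 29.0%, and 29.4%, reached to just below the lowest WT library. No pair of genotypes compared overlapped, with differences of -5.34 percentage points (CLIPΔ against WT), -20.7 (*Ago2* KO against WT), -2.01 (*Ago2* KO/CLIPΔ against *Ago2* KO), and -17.3 (*Ago2* KO/CLIPΔ against CLIPΔ). Each gave p = 0.0286 in a two-sided exact permutation test, the smallest that 4 against 4 libraries allow, and 0.0286 after adjustment over the 4. These are shares of a library, so a lower share of one miRNA can come with a higher share of others.

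The members of the family did not move alike. miR-295-3p, the most abundant, was at 22.5% ± 2.93 (SD, n = 4) of miRNA TPM in the WT and 8.47% ± 0.0936 in the *Ago2* KO, and miR-294-3p at 10.5% ± 3.35 and 3.20% ± 0.157. In miR-291a-3p the shares were 1.30% ± 0.0982 and 1.66% ± 0.296. miR-302d-3p was at 0.795% ± 0.11 in the WT, 0.277% ± 0.0398 in the CLIPΔ, and 0.423% ± 0.0633 in the *Ago2* KO. miR-302b-3p went the other way without *Ago2*, from 0.0923% ± 0.0193 in the WT to 0.783% ± 0.0614, and was lowest in the CLIPΔ at 0.0298% ± 0.00245. These single shares are given without a test. The miR-290 members held most of the family's share in every genotype.

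**Figure D5:**
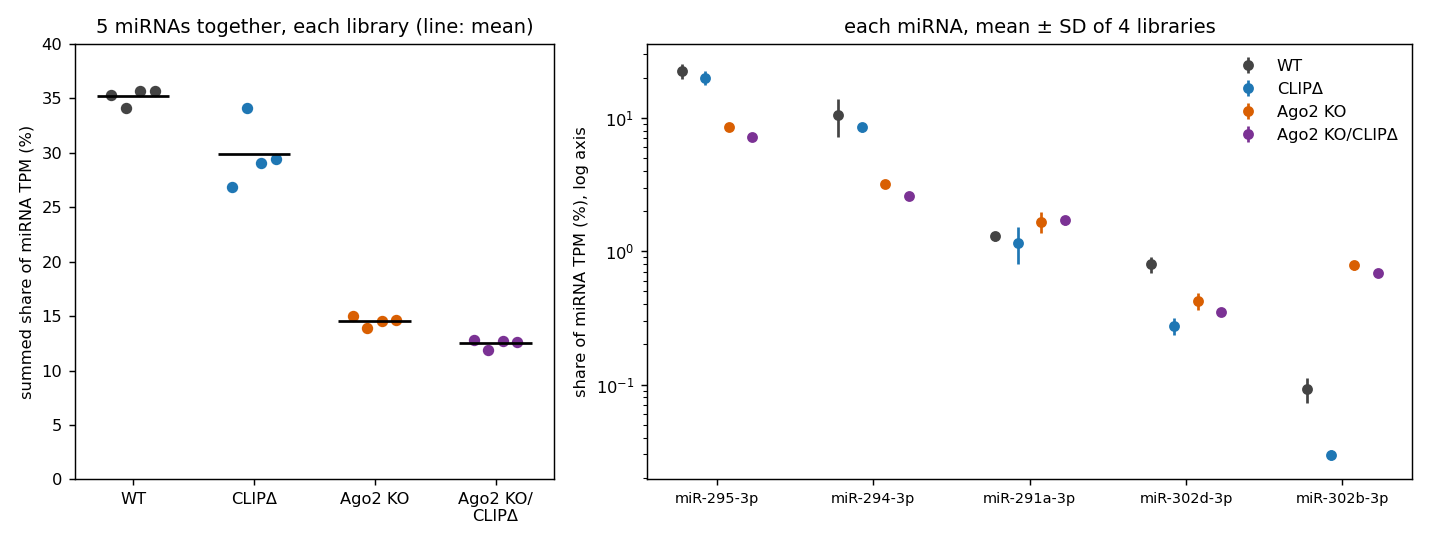
Left, summed share of miRNA TPM (%, from 0) of the 5 miRNAs with the AAGUGCU seed in each small-RNA library of the 4 genotypes, with the mean as a line. Right, the share of each miRNA (log axis) as mean ± SD of 4 libraries. The summed share is between 34.2% and 35.7% in the WT and between 13.9% and 15.0% in the *Ago2* KO, and miR-302b-3p is the miRNA with a higher share in the *Ago2* KO by the widest margin.

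All tested genes were also grouped by their match to this seed. In the *Ago2* KO against the WT, 217 of 367 genes with an 8mer passed as lower (59.1%) and 21 as higher (5.72%), with a median log2 fold change of -0.47. For genes with a 7mer and no 8mer the median was -0.41, for those with a 6mer alone -0.32, and for the 7384 with no match -0.18, of which 37.5% passed as lower. The 3’UTRs with an 8mer were longer, with a median of 2695 bases against 737 for no match. Among genes with 3’UTRs between 1536 and 4203 bases, a range set after seeing the data, the medians were -0.51 for 185 genes with an 8mer and -0.38 for 1614 with no match. In the CLIPΔ against the WT, the medians with an 8mer and with no match were -0.06 and -0.05. These are descriptions with no test, since genes are not replicates. Of the members with an 8mer, Mbd2 and Rbl2 lay below the median of the 8mer genes and Lats2 above it.

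The pathways around 7 of the 8 genes were read through lists that leave the 8 out. In the *Ago2* KO against the WT, most calls in each list were lower, as over all genes, where 42.4% were lower and 14% higher. Of 12 other mRNAs described as targets of this seed, 5 were lower, 0 higher, and 7 did not pass, with a median log2 fold change of -0.42. Arid4b, a chromatin factor that binds the Sin3 complex, fell from 3.66 ± 0.816 TPM (SD, n = 2) to 1.17 ± 0.083 (SD, n = 4), and Cdkn1a, the p21 inhibitor of cyclin-dependent kinases, from 429 ± 59.9 to 239 ± 16.6. With median centring 4 of the 12 were lower and 2 higher.

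Around Lats2, 11 of 16 Hippo pathway genes were lower and 0 higher (median -0.48). Cyr61, a target of YAP, changed by -1.80 on the log2 scale and Tead1, a partner of YAP on DNA, by -1.68. Cyr61 had 367 ± 329 TPM (SD, n = 2) in the WT, a spread as large as its mean. Around Rbl2, 10 of 17 pocket protein and E2F genes were lower and 1 higher (median -0.65), among them E2f3 (from 12.5 ± 1.41 to 5.10 ± 0.692 TPM) and the sister pocket protein gene Rbl1 (from 10.02 ± 1.63 to 4.74 ± 0.216 TPM). Around Casp2 and Ei24, 6 of 16 caspase and mitochondrial death genes were lower and 2 higher (median -0.27). Pmaip1, which encodes the BH3 protein NOXA, fell from 12.5 ± 8.12 to 2.29 ± 0.565 TPM.

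Around Mbd2, 5 of 16 MBD and NuRD genes were lower and 0 higher (median -0.21), with Mbd1, another methyl-CpG-binding protein, at -1.25 and the NuRD helicase gene Chd4 at -0.65. Around Tgfbr2, 8 of 15 TGF-beta pathway genes were lower and 0 higher (median -0.38), with the SMAD co-repressor gene Skil at -1.04 and the activin type I receptor gene Acvr1b at -0.92. Around Dkk1, 7 of 14 Wnt genes were lower and 0 higher (median -0.33). Axin2, a feedback target of Wnt signalling, fell from 44.3 ± 8.33 to 16.2 ± 1.65 TPM, and T (Brachyury), another target, from 18.0 ± 6.79 to 6.93 ± 1.93. All genes named here passed an adjusted p of 0.05 (limma). They kept their direction and passed under both other scalings, except Chd4, which did not pass with median centring (-0.30, adjusted p = 0.139).

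The direction of the lists is less firm than that of the named genes. With median centring, the MBD and NuRD list had 6 higher and 2 lower, the Hippo list 3 higher and 5 lower, the pocket protein and E2F list 4 and 7, the caspase list 3 and 3, the TGF-beta list 2 and 5, and the Wnt list 1 and 5. In the CLIPΔ against the WT, 0 genes of these lists passed, and the medians lay between -0.24 (TGF-beta pathway) and 0.09 (caspases). Among the pluripotency markers 3 of 9 were lower and 2 higher in the *Ago2* KO, with Dppa3 at -2.94 and Klf2 at 0.66, against 1 lower and 2 higher with median centring and 5 lower and 1 higher with quantile normalization. Of the lineage markers 2 of 6 were lower, Nes at -1.30 and T, and the single fibroblast marker tested did not pass.

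Over the 12 libraries, Casp2, Mbd2, and Rbl2 followed one another in log2(TPM + 1), with r = 0.942 for Casp2 and Mbd2, 0.928 for Casp2 and Rbl2, and 0.879 for Mbd2 and Rbl2. Rhoc and Dkk1 ran against them. With Casp2, Mbd2, and Rbl2, r was -0.721, -0.836, and -0.612 for Rhoc and -0.785, -0.664, and -0.734 for Dkk1. These are descriptions over libraries that fall into 2 clusters by *Ago2*, from 4 genotypes, and carry no test. Among genes of at least 1 TPM on average, those most like a member by r were Cenpq (0.994) and Etnk1 (0.994) for Casp2, Naa15 (0.990) and Papd5 (0.989) for Mbd2, Cpsf7 (0.989) and Rlim (0.989) for Rbl2, and Cox8a (0.971) and Gipc1 (0.967) for Rhoc. For Ei24 they were Dhdds (0.964) and Pole4 (0.948), for Lats2 Gapdhs (0.937) and Bhlha15 (0.928), for Dkk1 Maged2 (0.917) and 4930578M01Rik (0.915), and for Tgfbr2 Dolk (0.863) and Dnajc15 (0.842).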

How the data were processed

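RNA-seq and small-RNA-seq reads had been mapped by the authors to mm10 with HISAT2 (v2.1.0), counted with HTSeq (1 transcript per gene, the longest), and deposited as TPM in 1 column per library. TPM keeps no depth, so counting error is unknown. Trim71 peaks were deposited as read counts pooled over 2 replicates. The column code d3 was read as CLIPΔ by elimination. Small-RNA columns of WT and CLIPΔ carry letters and were matched to genotypes only. Genes whose mean TPM reached 1 were tested with limma 3.58.1 (trend) in R 4.3.3 on log2(TPM + 1), CLIPΔ against WT on 4 libraries and the other contrasts on all 12, with Benjamini–Hochberg adjustment. These tests were checked on simulated data. The p-values measure the spread between libraries the labels call biological replicates.

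Deviations of same-numbered *Ago2* KO and *Ago2* KO/CLIPΔ libraries correlated in all 4 pairs (r between 0.32 and 0.433 across 11287 genes), so their blocked value is given. Libraries of other numbers within replicates 1 and 2, or 3 and 4, correlated alike (r between 0.335 and 0.467), so the number is not singled out. Between genotypes with and without *Ago2*, same-numbered libraries gave r between -0.186 and 0.231. 3’UTRs came from GENCODE M21 and GRCm38.p6, less the stop codon, with the longest per gene taken, which need not be the one expressed. Python 3.11.15, scipy 1.17.1, and matplotlib 3.10.9 were used. The table lists no gene at 0 in any library. The study tested counts, which TPM are not, so limma took the place of a count test. One gene list and 1 named gene are not reported here. Named genes were all 8 members, *Ago2*, Trim71, the 2 most changed genes per list past the threshold, and the 2 most correlated genes per member. The members and lists were chosen with earlier results of these data known.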

Additional observations from a re-analysis of the deposited data

Results flagged for a closer look

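Among 40 groups of 4 libraries examined for a library that stands apart (the 8 genes in both *Ago2* KO genotypes and the seed family, by miRNA and summed, in all 4), 2 had a gap to the nearest library, divided by the range of the group, above Dixon's 95% critical value. Chance gives about 1 in 20 such groups. The lowest *Ago2* KO library for miR-291a-3p had a ratio of 0.869, with 1.22% of miRNA TPM against a group mean of 1.66% ± 0.296 (SD, n = 4). The lowest WT library for miR-295-3p had a ratio of 0.848, with 18.1% against a mean of 22.5% ± 2.93 (SD, n = 4). The highest WT library for miR-294-3p reached 15.5%. None of the 8 mRNAs was among them, and WT and CLIPΔ RNA-seq groups of 2 were not examined.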

How the results depend on the processing

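Of 592 values of single members over all alternatives, 535 kept their direction and their side of the threshold, 10 lost the call, 7 gained one, and 40 changed sign. With the replicate number as a block, 333 genes passed in CLIPΔ against WT and 180 in *Ago2* KO/CLIPΔ against *Ago2* KO. The block changed no call of a member. Same-numbered WT and CLIPΔ libraries correlated (r = 0.715), but 2 pairs without a label do not pair them. The fit over all 12 libraries gave 256 genes in CLIPΔ against WT, and that without the other 2 genotypes gave 353 in *Ago2* KO/CLIPΔ against *Ago2* KO. Replicates 1 and 2 alone gave 0 genes there and 0 for the interaction, and replicates 3 and 4 gave 4238 genes and 3 members, which are to be read against that count. With Rbl2 under the filter there, it was not among them. Without the filter, 168 genes passed for the interaction. Leaving out single libraries gave 0 to 186 genes for CLIPΔ against WT (42 without CLIPΔ replicate 1 and 186 without CLIPΔ replicate 2), 4150 to 6631 for *Ago2* KO against WT, 21 to 161 for *Ago2* KO/CLIPΔ against *Ago2* KO, 3648 to 6609 for *Ago2* KO/CLIPΔ against CLIPΔ, and 48 to 137 for the interaction, and 3 to 6 members in *Ago2* KO against WT. The cause of these differences was not tested.

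Signs turned with median centring for Rbl2 in CLIPΔ against WT (0.017), Lats2 (0.18) and Ei24 (0.16) in *Ago2* KO against WT, and Lats2 (0.24) in *Ago2* KO/CLIPΔ against CLIPΔ. With quantile normalization Lats2 turned in both of the latter comparisons (0.18 and 0.23). With replicates 1 and 2 alone, Casp2 (-0.22) and Ei24 (-0.076) turned in *Ago2* KO/CLIPΔ against *Ago2* KO and Lats2 (-0.080) in the interaction, and with replicates 3 and 4 Lats2 (0.058) did in the former. None of these values passed the threshold in either setting. Leaving out single libraries turned signs, with these ranges of log2 fold change. In CLIPΔ against WT these were Rbl2 (-0.32 to 0.25), Mbd2 (-0.17 to 0.028), Ei24 (-0.28 to 0.67), Rhoc (-0.070 to 0.22), and Dkk1 (-0.038 to 0.51). In *Ago2* KO against WT it was Ei24 (-0.66 to 0.29). In *Ago2* KO/CLIPΔ against *Ago2* KO they were Casp2 (-0.061 to 0.082), Ei24 (-0.025 to 0.10), and Rbl2 (-0.10 to 0.016). In *Ago2* KO/CLIPΔ against CLIPΔ they were Lats2 (-0.26 to 0.071), Ei24 (-0.68 to 0.0030), and Dkk1 (-0.048 to 0.50). For the interaction they were Rbl2 (-0.29 to 0.21), Rhoc (-0.067 to 0.22), Lats2 (-0.088 to 0.24), and Ei24 (-0.63 to 0.32).

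The family share kept its sign in every setting. Leaving out 1 small-RNA library leaves 0.0571 as the smallest p. Adding miR-302a-3p and miR-302c-3p, an alternative chosen after seeing the data, gave a difference of -20.7 percentage points for *Ago2* KO against WT. The union of all annotated 3’UTRs gave the same 4 members with an 8mer and 8 with an 8mer or 7mer.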
